A study of Mus musculus with 28 samples.

Results

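A set of 10 genes that mark liver sinusoidal endothelial cells were followed here across diets: Stab1, Stab2, Fcgr2b, Lyve1, Clec4g, Pecam1, Kdr, Gata4, Oit3 and Tek. They were taken from a list of names and matched to the array annotation, and make up 10 of 18193 genes with a lead probe set and 17 of 45037 probe sets. No probe set that named one of them also named another gene. Where a gene had several probe sets, the one with the highest mean over all arrays was called its lead probe set and stood for the gene.

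Liver RNA was measured on Affymetrix mouse arrays, 1 mouse per array, in wild-type mice and in mice lacking the constitutive androstane receptor (CAR), a xenobiotic-sensing nuclear receptor of hepatocytes. The mice were C3H/HeN females, and the CAR-deficient line was on the same background. Their labelled age of 5 weeks is the age at the start. Acclimation and several weeks on the diets followed, so the livers came from older mice. Each mouse received an isocaloric Lieber liquid diet, first freely and then in a fixed daily ration. The EtOH+EA diet held ethanol and ellagic acid, the EtOH+RSV diet held ethanol and trans-resveratrol, the EtOH diet held ethanol alone, and the control diet held water in place of ethanol. Both compounds are plant polyphenols, and each was taken at about 50 mg per kg body weight per day. There were 4 wild-type arrays and 3 CAR-deficient arrays per diet, 28 arrays in all. The purpose of the study was to ask what the polyphenols do to ethanol-induced fatty liver and whether CAR takes part.

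Sinusoidal endothelial cells line the capillaries of the liver lobule. They have open pores and no continuous basement membrane, and they take up waste macromolecules from blood through scavenger, lectin and Fc receptors. Growth factors of the VEGF and angiopoietin families act on them through tyrosine kinase receptors, and the transcription factor Gata4 is needed for their specialised form. When the cells lose that form, they acquire features of continuous capillaries. Several of the markers have other sources: Fcgr2b is also found on B cells and macrophages, Stab1 on some macrophages, Lyve1 on lymphatic vessels, and Pecam1, Kdr and Tek on endothelium of other vessels.

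The values deposited were log2 values from the Distribution Free Weighted (DFW) summary, made apart for each genotype. DFW shrinks the spread of many probe sets almost to 0, so differences between groups are given on the DFW scale, which is not calibrated to fold change, and levels were not compared between probe sets or genotypes. A probe set was called compressed where its standard deviation (SD) over the arrays of a genotype was at most 0.01, which held for 78.8% of lead probe sets in wild-type livers and 71.54% in CAR-deficient livers. The highest value was 27.249 in CAR-deficient livers and 14.725 in wild-type livers. The probe set of Nr1i3, the gene of CAR, had values of 8.55 to 9.49 in the CAR-deficient arrays and 8.96 to 10.10 in the wild-type arrays. Where its probes lie relative to the deleted part is not given in the sources used here, so this gene is no check of the line, and the labels were used as given. In whole liver RNA, fewer endothelial cells and less RNA per cell cannot be told apart. The number of arrays limits the precision of all values.

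Of the 10 lead probe sets, 4 were not compressed in wild-type livers: Stab2, Fcgr2b, Lyve1 and Clec4g. In CAR-deficient livers Kdr joined them, which made 5 of 10. The SD over all wild-type arrays was 0.35 for Lyve1, 0.21 for Stab2, 0.12 for Fcgr2b and 0.09 for Clec4g. For the other genes it lay between 0.000105 for Pecam1 and 0.000347 for Gata4. Counting every probe set, 11 of 17 were compressed in CAR-deficient livers and 12 of 17 in wild-type livers.

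**Figure D1:**
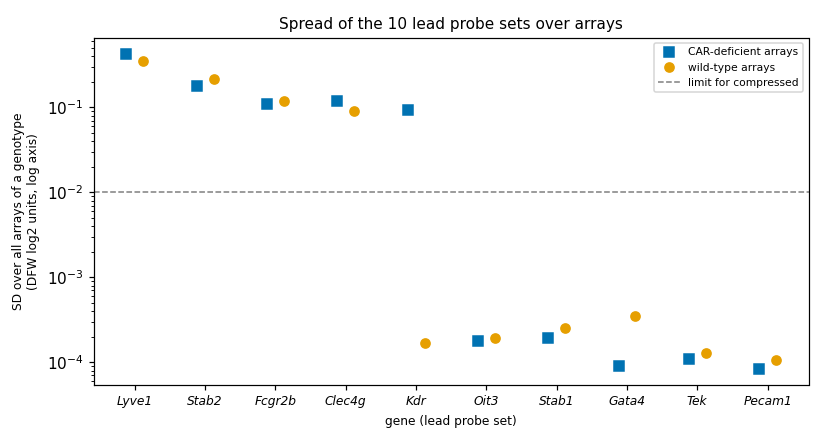
Standard deviation of each lead probe set over the 12 CAR-deficient arrays (squares) and the 16 wild-type arrays (circles), in DFW log2 units on a log axis, with the limit of 0.01 as a dashed line. Lyve1, Stab2, Fcgr2b and Clec4g lie above the line in both genotypes, Kdr in CAR-deficient livers only, and the other 5 genes lie below it.

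The promoter windows of 3 members whose values moved with diet, and that the RefSeq promoter table held, are shown here, so that the sequence can be read beside the values. Each runs 5′ to 3′ along the gene and holds the 250 bases before the start that this table gives in GRCm38.p6. The full span of a gene, as RefSeq lists it, can begin further upstream than that start: 96 bases of the Stab2 window and 44 of the Clec4g window lie inside the gene's span, and 0 of the Fcgr2b window. They were chosen from the 6 members found in that table, which were Stab1, Stab2, Fcgr2b, Clec4g, Kdr and Tek. Capitals mark GGAAG on either strand (CTTCC on the other), the core bound by ETS factors, a family that includes endothelial regulators. The Stab2 window lies at chr10:87007943-87008192, strand minus, the Fcgr2b window at chr1:170976072-170976321, strand minus, and the Clec4g window at chr8:3720652-3720901, strand minus.
Stab2: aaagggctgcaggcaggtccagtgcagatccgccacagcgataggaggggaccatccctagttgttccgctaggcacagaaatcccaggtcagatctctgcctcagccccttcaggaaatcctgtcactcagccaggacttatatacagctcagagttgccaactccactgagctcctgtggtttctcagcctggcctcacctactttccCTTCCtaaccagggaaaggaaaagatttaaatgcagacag
Fcgr2b: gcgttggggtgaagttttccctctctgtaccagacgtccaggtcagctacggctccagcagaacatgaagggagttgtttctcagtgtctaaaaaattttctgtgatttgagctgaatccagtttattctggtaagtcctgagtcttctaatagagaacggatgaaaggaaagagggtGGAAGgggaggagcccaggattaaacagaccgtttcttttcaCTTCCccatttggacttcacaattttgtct
Clec4g: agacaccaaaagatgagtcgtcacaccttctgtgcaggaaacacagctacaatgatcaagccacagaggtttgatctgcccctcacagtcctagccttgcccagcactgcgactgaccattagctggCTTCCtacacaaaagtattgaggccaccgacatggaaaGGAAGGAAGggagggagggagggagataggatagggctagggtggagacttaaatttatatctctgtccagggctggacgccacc
The motif was found at 1 place in the Stab2 window, within the gene's span, and outside the span at 2 places for Fcgr2b and at 3 places for Clec4g, where 2 of the matches overlap. Of the 6 member windows 5 held it, Tek being the exception, and 64.1% of all 32851 windows of this length did. GATAA on either strand, a site for GATA factors, was in 0 of the 6 windows and in 22.6% of all windows. These are matches of letters only.

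In wild-type livers the members that passed the test moved in different directions. Stab2, a scavenger receptor for hyaluronan, was lower with EtOH and with EtOH+RSV than with the control diet. Lyve1, another hyaluronan receptor, and Clec4g, a lectin also known as LSECtin, were higher with EtOH+EA than with control, and Fcgr2b, the inhibitory IgG Fc receptor, was higher with EtOH+EA than with EtOH. In CAR-deficient livers no member passed the test. Diets were compared by limma, p-values being adjusted (Benjamini-Hochberg) across every probe set with 0.05 as the threshold, and all comparisons within a genotype share arrays.

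By count, 1 of 10 members passed for EtOH against control, where 7.04% of all lead probe sets passed. For EtOH+EA against control 3 of 10 passed, all higher, beside 18% of all lead probe sets, and for EtOH+RSV against control 1 of 10 passed, beside 23.8%. For EtOH+EA against EtOH 1 of 10 passed, beside 3.22%. For EtOH+RSV against EtOH 0 of 10 passed, beside 0.555%, and for EtOH+EA against EtOH+RSV 0 of 10 passed, beside 0.0165%. At an unadjusted p under 0.05 these last comparisons held 0 and 4 members, and by rank product 0 and 3, beside 6.11% and 4.76% of all lead probe sets. No share of all lead probe sets is given at an unadjusted p, here or below, so an excess cannot be read from such counts. Nor is a share given for groups of arrays that did not overlap, in either genotype, so such separations only describe single genes. Among lead probe sets that were not compressed, the share passing was 43% for EtOH+EA, 45.3% for EtOH+RSV and 18.4% for EtOH, each against control, and of the 4 uncompressed members 2, 1 and 1 passed. The median difference over the 10 members was 0.000269 for EtOH+EA, -9.74e-05 for EtOH+RSV and -2.55e-05 for EtOH against control, beside medians of 4.47e-05, 4.96e-05 and 3.42e-05 over all lead probe sets. With quantile normalization of the arrays, 8, 7 and 6 members passed in these comparisons in place of 3, 1 and 1, most of the added ones being compressed, beside 58.6%, 61% and 40.8% of all lead probe sets. Of these members 7, 6 and 5 were higher.

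Stab2 (probe set 1419423_at, gene at chr10:86841194-87008038, GRCm38.p6) binds and takes up hyaluronan and other ligands from blood. In wild-type livers its DFW values were 8.79, 8.94, 9.12 and 8.92 with EtOH+EA, 8.85, 8.86, 8.78 and 8.85 with EtOH+RSV, and 8.63, 8.91, 8.84 and 8.72 with EtOH, against 8.99, 9.13, 9.41 and 9.35 with control. All EtOH and all EtOH+RSV arrays lay below all control arrays, while 1 EtOH+EA array, replicate 3, lay inside the control range. Stab2 fell by 0.45 ± 0.09 with EtOH (SE, limma adjusted p = 0.0195) and by 0.39 ± 0.09 with EtOH+RSV (limma adjusted p = 0.015) relative to control. With EtOH+EA the difference from control was -0.28 (95% interval -0.49 to -0.07, limma adjusted p = 0.0679), which did not pass. It did pass with the replicate number as a block (-0.28, limma adjusted p = 0.0371), under quantile normalization and by rank product. The same held among uncompressed probe sets, among those above the median level, without control replicate 1 and without EtOH+EA replicate 3. Between the ethanol diets, Stab2 differed by 0.17 for EtOH+EA minus EtOH (95% interval -0.04 to 0.37) and by 0.06 for EtOH+RSV minus EtOH (-0.14 to 0.27). The EtOH call was lost without control replicate 3, without control replicate 4 and without EtOH replicate 1, at limma adjusted p of 0.0544 to 0.0549, and the difference was then between -0.40 and -0.38. A fit of only the 2 diets compared gave limma adjusted p of 0.112 for EtOH and 0.0503 for EtOH+RSV against control.

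Stab2 moved in the same libraries as Kupffer cell markers. Of 12 Kupffer cell markers, 9 were lower with EtOH+EA, 9 with EtOH+RSV and 8 with EtOH than with control (limma). The shares of all lead probe sets that passed, in either direction, were 18%, 23.8% and 7.04% for these diets. Vsig4, Clec4f, Cd5l, Adgre1 and the C1q subunit genes C1qa, C1qb and C1qc, all uncompressed, were lower with each of the 3, as was compressed Timd4. Csf1r, the receptor for a macrophage growth factor, was the ninth with EtOH+EA, and compressed Cd68, a lysosomal protein, the ninth with EtOH+RSV. Timd4 and Cd68 turned sign under quantile normalization. Cd163, a hemoglobin scavenger receptor with a compressed lead probe set in wild-type livers, was higher with EtOH+EA and EtOH+RSV. Their mean level over the 12 genes was 8.39 to 8.43 with EtOH+EA, 8.36 to 8.48 with EtOH+RSV and 8.38 to 8.49 with EtOH, against 8.54 to 8.66 with control, so no ethanol array reached the control range. DFW values have no 0, so absence of a marker cannot be read from them. The part of Kupffer cell RNA in the Stab2 values was not tested.

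Stab1 (1450199_a_at, chr14:31139017-31168651), a related scavenger receptor that also sorts ligands inside the cell, was compressed in both genotypes. Its wild-type values were 7.90404 to 7.90459 with EtOH+EA, 7.90398 to 7.90445 with EtOH+RSV, 7.90389 to 7.90447 with EtOH and 7.90371 to 7.90435 with control. The ranges of all 4 diets overlapped and no comparison passed.

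Lyve1 (lead 1429379_at, chr7:110850607-110862953) encodes a receptor for hyaluronan at the cell surface. Its wild-type values were 8.26, 8.20, 8.31 and 7.90 with EtOH+EA, 7.98, 8.00, 7.93 and 7.94 with EtOH+RSV, and 7.86, 7.42, 7.62 and 8.08 with EtOH, against 7.10, 7.21, 7.81 and 7.69 with control. Every EtOH+EA and every EtOH+RSV array was above every control array, and the EtOH arrays overlapped those of every other diet. Lyve1 rose by 0.71 ± 0.17 with EtOH+EA relative to control (SE, limma adjusted p = 0.0144), a call kept whichever array was left out, while a fit of only the 2 diets gave a limma adjusted p of 0.0533. With EtOH+RSV the difference from control was 0.51 (95% interval 0.14 to 0.87, limma adjusted p = 0.0529), just outside the threshold. This difference passed under quantile normalization, by rank product, among uncompressed probe sets and among those above the median level. The same held without control replicate 3, EtOH replicate 3 or EtOH replicate 5. For EtOH minus control it was 0.29 (-0.07 to 0.66) and for EtOH+EA minus EtOH 0.42 (0.06 to 0.79, limma adjusted p = 0.245). Both passed by rank product only. The second Lyve1 probe set, 1453128_at, was compressed in wild-type livers, and it too passed for EtOH+EA against control (difference 0.00035, limma adjusted p = 0.0333).

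Clec4g (lead 1427428_at, chr8:3707066-3720695) encodes a C-type lectin that binds sugars on glycoproteins. Its wild-type values were 10.85, 10.92, 10.86 and 10.88 with EtOH+EA, 10.68, 10.70, 10.67 and 10.78 with EtOH+RSV, and 10.78, 10.71, 10.81 and 10.64 with EtOH, against 10.62, 10.72, 10.73 and 10.78 with control. The 4 EtOH+EA arrays were the 4 highest of all 16, and the other diets overlapped. Clec4g rose by 0.17 ± 0.04 with EtOH+EA relative to control (SE, limma adjusted p = 0.0152). Relative to EtOH the difference was 0.15 (95% interval 0.06 to 0.23, limma adjusted p = 0.0843), and relative to EtOH+RSV it was 0.17 (0.09 to 0.26, limma adjusted p = 0.365), neither past the threshold. Both passed by rank product, and the difference from EtOH also among uncompressed probe sets and among those above the median level. For EtOH+RSV minus control it was -0.0043 (-0.09 to 0.08). The second probe set, 1431575_at, was compressed and passed in no comparison.

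**Figure D2:**
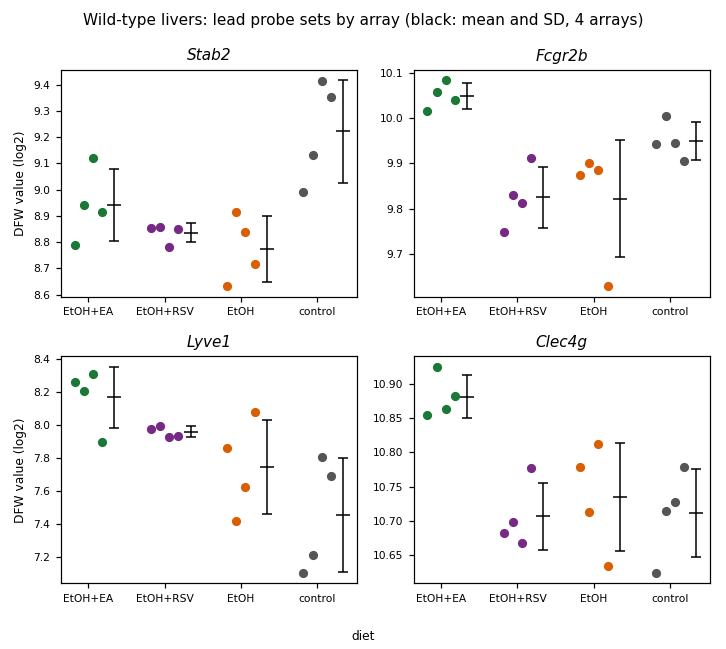
DFW log2 values of Stab2, Fcgr2b, Lyve1 and Clec4g (y axes, a scale for each gene) in each wild-type array by diet (x axis), points standing for arrays and black marks for the mean and SD of 4 arrays. The Stab2 arrays on EtOH lie at 8.63 to 8.91, below all control arrays, and the Clec4g arrays on EtOH+EA at 10.85 to 10.92, above all others.

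Fcgr2b (lead 1435477_s_at, chr1:170960558-170976071) encodes the inhibitory Fc receptor through which sinusoidal cells clear small immune complexes. Its wild-type values were 10.02, 10.06, 10.08 and 10.04 with EtOH+EA, 9.75, 9.83, 9.81 and 9.91 with EtOH+RSV, 9.87, 9.90, 9.89 and 9.63 with EtOH, and 9.94, 10.00, 9.95 and 9.91 with control. The EtOH+EA arrays were again the 4 highest of the 16, and all EtOH arrays lay below all control arrays. Fcgr2b rose by 0.23 ± 0.05 with EtOH+EA relative to EtOH (SE, limma adjusted p = 0.0479). This call was close to the threshold and was lost in 13 of 16 fits that left out 1 array. It held without EtOH replicate 3, EtOH replicate 5 or EtOH+RSV replicate 4 (limma adjusted p = 0.0342 to 0.0417). Among the fits that lost it the limma adjusted p reached 0.141, and a fit of only the 2 diets gave 0.186. The difference for EtOH+EA minus control was 0.10 (95% interval -0.02 to 0.22), and for EtOH minus control it was -0.13 (-0.24 to -0.01, limma adjusted p = 0.194). For EtOH+EA minus EtOH+RSV it was 0.22 (0.11 to 0.34, limma adjusted p = 0.365).

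The other Fcgr2b probe sets differed in how much they moved. Probe set 1435476_a_at, compressed in wild-type livers, also passed for EtOH+EA against EtOH (difference 0.0017, limma adjusted p = 0.0366), without overlap between the groups. Probe set 1451941_a_at was not compressed there and gave a difference of 0.13 in this comparison (limma adjusted p = 0.222). Probe set 1455332_x_at was compressed, with a difference of 0.000293 (limma adjusted p = 0.0982), and 1447622_at, also compressed, had a difference of 8.92e-06. In wild-type livers 0 of 7 measured B cell markers passed in this comparison, Kupffer cell markers passed in 0 of 12, and all 7 B cell markers were compressed. Of all lead probe sets 3.22% passed.

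Oit3 (1425125_at, chr10:59422960-59441779) encodes a zona pellucida domain protein made in these cells in mouse liver. Its wild-type values were 8.27191, 8.27181, 8.27199 and 8.27193 with EtOH+EA, 8.27170, 8.27173, 8.27183 and 8.27152 with EtOH+RSV, 8.27169, 8.27150, 8.27160 and 8.27138 with EtOH, and 8.27129, 8.27167, 8.27161 and 8.27165 with control. The EtOH+EA arrays were above all EtOH and all control arrays, on a scale of the fourth decimal. Oit3 passed for EtOH+EA against control with a difference of 0.000356 ± 0.0000946 (SE, limma adjusted p = 0.0255). The call was lost without control replicate 1 or without EtOH+EA replicate 1, 3 or 4 (limma adjusted p = 0.0531 to 0.0703). It was also lost under a trended robust variance model (limma adjusted p = 0.063), in a fit of only the 2 diets (limma adjusted p = 0.0548) and by rank product (false discovery rate 0.86). The probe set was compressed, so this size says little of the change in RNA.

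Arrays with the same replicate number deviated together in the EtOH+EA and control groups. With the replicate number as a block, 5 members passed for EtOH+EA against control in place of 3, beside 19.1% of all lead probe sets: Stab1, Lyve1, Clec4g and Oit3 were higher and Stab2 was lower.

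The growth factor receptors and the remaining markers were compressed in wild-type livers and passed in no comparison there. Kdr (1449379_at, chr5:75932827-75979072), the main VEGF receptor of endothelium, had values of 8.97152 to 8.97168 with EtOH+EA, 8.97124 to 8.97152 with EtOH+RSV, 8.97110 to 8.97150 with EtOH and 8.97122 to 8.97153 with control. Its EtOH+EA arrays lay above its EtOH arrays (difference 0.000275, limma adjusted p = 0.173). Tek (1418788_at, chr4:94739086-94874976), the angiopoietin receptor also called Tie2, stayed between 7.84287 and 7.84342 in all 16 arrays. Pecam1 (1421287_a_at, chr11:106654213-106715281), an adhesion molecule of endothelial junctions, stayed between 6.62559 and 6.62604. Gata4 (lead 1418863_at, chr14:63198914-63271712) stayed between 6.93466 and 6.93594, and its second probe set, 1418864_at, was compressed as well. The groups of each of these last 3 genes overlapped.

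**Figure D3:**
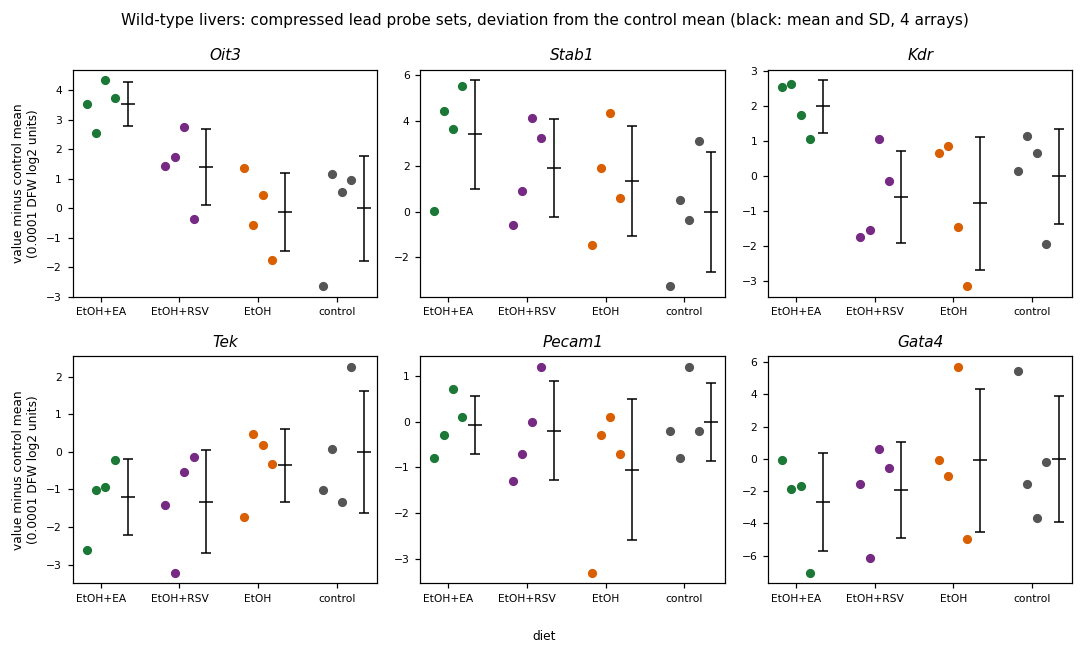
Deviation of each wild-type array from the control mean, in units of 0.0001 DFW log2 units (y axes), by diet (x axis), for the 6 compressed lead probe sets, with points for arrays and black marks for the mean and SD of 4 arrays. The EtOH+EA arrays of Oit3 lie above its EtOH and control arrays, and the other genes overlap control on every diet.

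In CAR-deficient livers 0 of 10 members passed in any of the 6 comparisons by limma. The share of all lead probe sets that passed was 0.434% for EtOH, 0.242% for EtOH+EA and 0.0715% for EtOH+RSV, each against control, and 0% for EtOH+EA against EtOH, EtOH+RSV against EtOH and EtOH+EA against EtOH+RSV. At an unadjusted p under 0.05 there were 0, 1 and 2 members in the comparisons of EtOH, EtOH+EA and EtOH+RSV with control, then 1 for EtOH+EA against EtOH, 3 for EtOH+RSV against EtOH, and 0 between the polyphenol diets. The shares above are at the adjusted threshold and give no background for these unadjusted counts. By rank product 1 member, Lyve1, passed for EtOH+RSV against EtOH, beside 0.236% of all lead probe sets, and 0 members passed in the other comparisons. With 3 arrays per diet the intervals were wide.

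Stab2 values in CAR-deficient livers were 9.29, 9.35 and 9.46 with EtOH+EA, 9.50, 9.32 and 9.35 with EtOH+RSV, and 9.19, 9.62 and 9.67 with EtOH, against 9.76, 9.60 and 9.62 with control. The EtOH+EA and EtOH+RSV arrays were below all control arrays, and the EtOH arrays spanned a wider range. The difference from control was -0.29 with EtOH+EA (95% interval -0.58 to -0.01, limma adjusted p = 0.397), -0.27 with EtOH+RSV (-0.55 to 0.0096, limma adjusted p = 0.505) and -0.16 with EtOH (-0.44 to 0.12, limma adjusted p = 0.663). Of the 12 Kupffer cell markers 0 passed in any CAR-deficient comparison by limma, while at an unadjusted p under 0.05 there were 6 for EtOH+EA, 5 for EtOH+RSV and 8 for EtOH, each against control. The share of all lead probe sets at that unadjusted level is not given here. The median difference over the 12 genes was -0.318, -0.227 and -0.271 in these comparisons in CAR-deficient livers, and -0.221, -0.251 and -0.21 in wild-type livers. In the CAR-deficient arrays their mean level was 8.80 to 8.98 with EtOH+EA, 8.87 to 9.05 with EtOH+RSV and 8.80 to 9.01 with EtOH, against 9.03 to 9.25 with control.

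Lyve1 values were 8.46, 8.06 and 8.17 with EtOH+EA, 8.28, 8.17 and 9.19 with EtOH+RSV, 7.59, 7.85 and 7.95 with EtOH and 7.97, 8.29 and 7.55 with control. Replicate 3 of EtOH+RSV was the highest array, and both polyphenol diets lay above all EtOH arrays without a call. The difference was 0.74 for EtOH+RSV minus EtOH (95% interval 0.08 to 1.41, limma adjusted p = 0.892) and 0.43 for EtOH+EA minus EtOH (-0.23 to 1.10, limma adjusted p = 0.717). Its second probe set was not compressed in this genotype and ranged from 7.33 to 7.67 with EtOH+EA, from 7.56 to 7.91 with EtOH+RSV, from 7.15 to 7.35 with EtOH, and from 7.22 to 7.57 with control.

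Clec4g values were 11.31, 11.27 and 11.25 with EtOH+EA, 11.32, 11.29 and 11.48 with EtOH+RSV, 11.06, 11.20 and 11.19 with EtOH and 11.04, 11.22 and 11.20 with control. All 6 arrays on a polyphenol diet were above all 6 others, a pooling of diets that was not among the comparisons tested. The difference from control was 0.21 with EtOH+RSV (95% interval 0.06 to 0.36, limma adjusted p = 0.303), 0.13 with EtOH+EA (-0.03 to 0.28, limma adjusted p = 0.53) and 0.00039 with EtOH (-0.15 to 0.15).

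Fcgr2b values were 10.52, 10.53 and 10.53 with EtOH+EA, 10.51, 10.37 and 10.57 with EtOH+RSV, 10.18, 10.45 and 10.32 with EtOH and 10.43, 10.47 and 10.46 with control. The EtOH+EA arrays lay close together above all EtOH and all control arrays. The difference for EtOH+EA minus EtOH was 0.21 (95% interval 0.05 to 0.37, limma adjusted p = 0.483). Its 4 other probe sets were compressed. Kdr, which was not compressed here, had values of 9.65, 9.68 and 9.57 with EtOH+EA, 9.67, 9.71 and 9.49 with EtOH+RSV, 9.49, 9.75 and 9.74 with EtOH, and 9.54, 9.58 and 9.58 with control. Its diets overlapped, with a difference of 0.09 for EtOH minus control (-0.09 to 0.28). Stab1, Pecam1, Gata4, Oit3 and Tek were compressed, with SDs over the 12 arrays from 8.35e-05 to 0.000192.

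**Figure D4:**
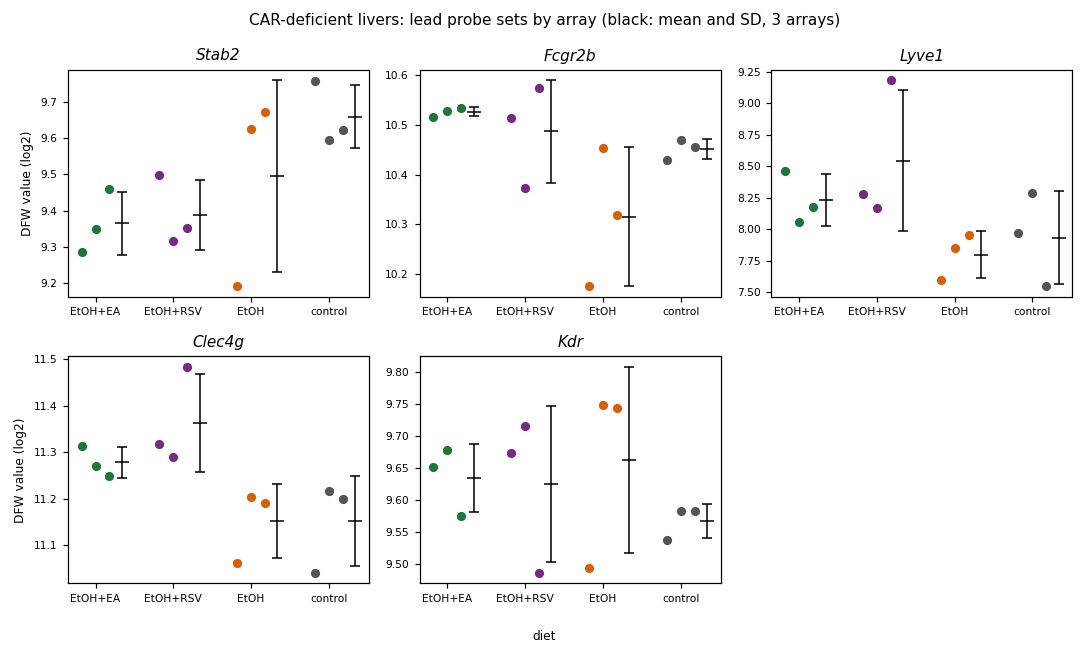
DFW log2 values of Stab2, Fcgr2b, Lyve1, Clec4g and Kdr (y axes, a scale for each gene) in each CAR-deficient array by diet (x axis), points standing for arrays and black marks for the mean and SD of 3 arrays. Clec4g lies at 11.25 to 11.48 on the polyphenol diets, above 11.04 to 11.22 on EtOH and control, and none of the differences passed the test.

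An interaction fit of all 28 arrays asked whether the diet differences were unequal in the 2 genotypes, and 0 members passed in any of 5 comparisons (smallest limma adjusted p of a lead probe set = 0.12). The share of all lead probe sets that passed was 2.11% for EtOH+EA, 3.34% for EtOH+RSV and 2.46% for EtOH, each against control, 0.176% for EtOH+EA against EtOH and 0% for EtOH+RSV against EtOH. Among lead probe sets Clec4g came nearest. For EtOH+RSV minus control its difference was 0.21 in CAR-deficient and -0.0043 in wild-type livers, 0.22 apart (95% interval 0.06 to 0.37, limma adjusted p = 0.12). For Stab2, EtOH minus control was -0.16 in CAR-deficient and -0.45 in wild-type livers, 0.28 apart (-0.04 to 0.60, limma adjusted p = 0.382). For Fcgr2b, EtOH+EA minus EtOH was 0.21 in CAR-deficient and 0.23 in wild-type livers, -0.02 apart (-0.20 to 0.16). For Lyve1, EtOH+EA minus control was 0.30 in CAR-deficient and 0.71 in wild-type livers, -0.42 apart (-1.08 to 0.24). The wild-type calls are therefore not shown to differ between the genotypes. DFW values were made apart for each genotype, so unequal scales and unequal responses cannot be told apart in this fit. The second Lyve1 probe set, compressed in wild-type livers only, differed by 0.35 in CAR-deficient and 0.00022 in wild-type livers for EtOH+RSV minus control (interaction limma adjusted p = 0.108). In that comparison the second Gata4 probe set, compressed in both genotypes, had an interaction of -0.00109 (limma adjusted p = 0.0917). At an unadjusted p under 0.05 the interactions held 0 members for EtOH minus control, 0 for EtOH+EA minus EtOH and 1 in each of the other 3. With quantile normalization within each genotype, 4 members passed for EtOH minus control, 2 for EtOH+EA minus control and 5 for EtOH+RSV minus control, beside 28.6%, 32.2% and 43.9% of all lead probe sets.

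**Figure D5:**
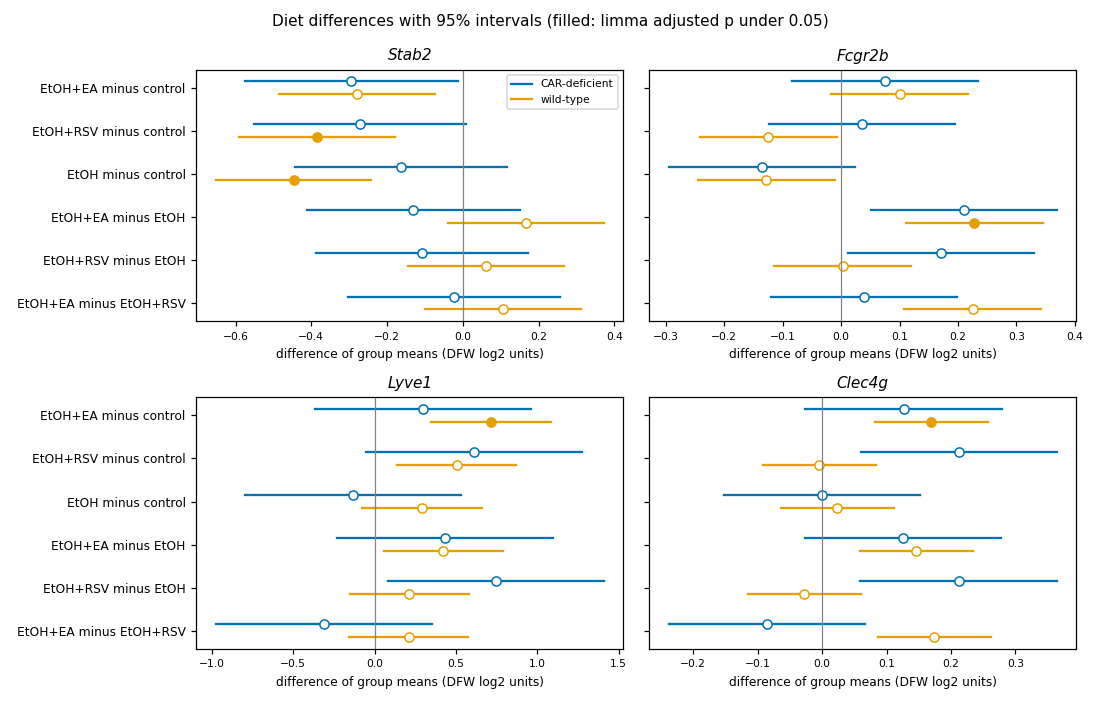
Differences between diet means in DFW log2 units (x axes) for Stab2, Fcgr2b, Lyve1 and Clec4g in each comparison (y axis), in CAR-deficient and wild-type livers, with 95% intervals as lines and filled points where the limma adjusted p was under 0.05. All 5 filled points are wild-type: Stab2 at -0.45 and -0.39, Fcgr2b at 0.23, Lyve1 at 0.71 and Clec4g at 0.17.

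Other genes of the sinusoid, grouped by function and chosen with earlier results of these data known, were set beside the members. Of 14 further sinusoidal endothelial genes in wild-type livers, Gpr182, a receptor of sinusoidal endothelium that takes up chemokines, was higher with each ethanol diet than with control: 8.28 with EtOH+EA, 8.32 with EtOH+RSV and 8.30 with EtOH, against 8.07 with control (limma adjusted p = 0.0117, 0.00382 and 0.0148). Aass, an enzyme of lysine breakdown that hepatocytes also make, was higher with EtOH+EA and EtOH+RSV, and the tight junction gene Cldn5, compressed, was lower with each of the 3 but higher with each under quantile normalization. So 2 rose and 1 fell with EtOH+EA, 2 rose and 1 fell with EtOH+RSV, and 1 rose and 1 fell with EtOH. Of all lead probe sets, 18%, 23.8% and 7.04% passed in these comparisons, in either direction. Among 16 genes of endothelium in all vessels, 15 were compressed. Ets1, an ETS factor of endothelium and lymphocytes, was not, and it fell by 0.24 with EtOH+EA, by 0.36 with EtOH+RSV and by 0.24 with EtOH (limma adjusted p = 0.00438, 0.00048 and 0.0125). Nos3, the endothelial nitric oxide synthase, was lower with EtOH+EA and EtOH+RSV on a compressed scale and higher under quantile normalization.

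The ligands and partners of the receptor members were mostly compressed, 11 of 13 in wild-type livers. Vegfb, a ligand of the VEGF receptor Flt1, fell by 0.33 with EtOH+EA and by 0.40 with EtOH+RSV relative to control (limma adjusted p = 0.00518 and 0.00165). Nrp1, a co-receptor that works with Kdr, fell by 0.39 with EtOH+RSV (limma adjusted p = 0.0493), and compressed Vegfc was lower there but higher under quantile normalization. The other 10 genes of this list, Vegfa, Vegfd, Pgf, Flt1, Flt4, Nrp2, Angpt1, Angpt2, Tie1 and Ptprb, were compressed in wild-type livers and passed in no comparison there. In all, 1 of 13 was lower with EtOH+EA, 3 of 13 with EtOH+RSV and 0 of 13 with EtOH. The shares of all lead probe sets that passed, in either direction, were 18%, 23.8% and 7.04%. At an unadjusted p under 0.05, 5 of 13 differed for EtOH against control. Of 9 signals sent by sinusoidal endothelium, Jag1, a Notch ligand, fell by 0.71 with EtOH+RSV (limma adjusted p = 0.0112), where compressed Hgf was also lower, and compressed Bmp6, a ligand that induces hepcidin, was lower with EtOH. Hgf and Bmp6 were both higher under quantile normalization.

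Of 8 genes of continuous endothelium and adhesion, Plvap, which forms the diaphragms of fenestrae and caveolae in capillaries, fell by 0.36 with EtOH+EA and by 0.42 with EtOH+RSV (limma adjusted p = 0.0107 and 0.00469). Vcam1, a leukocyte adhesion molecule, rose by 0.33 with EtOH+EA (limma adjusted p = 0.0122), and compressed Selp was higher with both. Stellate cell markers were higher in 3 of 10 with EtOH+EA (Des, Colec11 and Dcn). With EtOH+RSV 4 of 10 were higher (Des, Dcn, Lrat and Ecm1) and 2 lower, Pdgfra and Pdgfrb, both turning sign under quantile normalization. Hepatocyte markers were lower in 2 of 9 with EtOH+EA (Apoa1 and Apob), higher in 1 of 9 with EtOH+RSV (Cps1) and lower in 1 of 9 with EtOH (Apoa1). All measured B cell, T cell, neutrophil, platelet and cholangiocyte markers were compressed. Those that passed were 1 of 5 T cell markers (Cd4, higher) and 2 of 5 cholangiocyte markers (Epcam higher, Sox9 lower) with EtOH+EA, and with EtOH 1 of 7 B cell markers (Cd79b) and 1 of 5 cholangiocyte markers (Sox9), both lower. With EtOH+RSV they were 1 of 7 B cell (Blk), 2 of 5 T cell (Cd4 and Cd8a), 3 of 7 neutrophil, 1 of 6 platelet (Gp1bb) and 2 of 5 cholangiocyte markers. Of the neutrophil markers Ngp was higher and S100a8 and S100a9 lower, Epcam was higher and Sox9 lower, and the other named genes were higher. Sox9, S100a8 and S100a9 turned sign under quantile normalization. Beside these counts against control, 18% of all lead probe sets passed with EtOH+EA, 23.8% with EtOH+RSV and 7.04% with EtOH, in either direction. Across the 117 genes of all 13 lists, 0 passed for EtOH+EA against EtOH and 0 for EtOH+RSV against EtOH in wild-type livers by limma (14 and 16 at an unadjusted p under 0.05). Of all lead probe sets 3.22% and 0.555% passed there by limma. In CAR-deficient livers 0 of the 117 passed in any comparison, beside at most 0.434% of all lead probe sets. At an unadjusted p under 0.05 there were 4 to 30.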

How the data were processed

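Liver RNA of 28 mice was hybridised to Affymetrix Mouse Genome arrays, and the values used are the log2 values deposited by the authors, who summarised each probe set by DFW in R, apart for the 16 wild-type and the 12 CAR-deficient arrays. No normalization was added except where an alternative names one. Of 45101 rows 64 array controls were set aside, and 26 probe sets were blank in CAR-deficient arrays. Genes were named from the platform annotation, in which 34945 probe sets name 1 gene, 932 several and 9160 none. Groups and replicate numbers came from the sample titles, and no array was left out.

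Diets were compared by limma 3.58.1 in R 4.3.3 (lmFit and eBayes, 4 diets of a genotype in 1 fit, two-sided), with Benjamini-Hochberg adjustment over all 45037 wild-type or 45011 CAR-deficient probe sets and a threshold of 0.05. Interactions were fitted over all 28 arrays. The code was tested on simulated data with 100 changed probe sets. Limma recovered 67 at a difference of 0.5 and 94 at a difference of 1, with 13 false calls at each. All members are named with all their probe sets; of 13 other lists, genes past the threshold in a comparison with control and the ligands and receptor partners of members are named. The members and lists were chosen with earlier results of these data known. Promoter windows are from RefSeq (GRCm38.p6); Python 3.11.15 searched them and drew the figures.

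Same-numbered arrays were checked for pairing by correlating their deviations from the group means. Every pair exceeded 0.1 for EtOH+EA and control in wild-type livers (0.157 to 0.568, 4 pairs) and for EtOH and control in CAR-deficient livers (0.288 to 0.41, 3 pairs), and in no other comparison; the labels do not say what the numbers share. The alternatives were rank product, as in the study's methods, at a false discovery rate of 0.05, quantile normalization, filters on dim and on compressed probe sets, a trended robust variance model, only the 2 diets compared, any probe set of a gene in place of the lead one, the replicate block, and leaving out each array.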

Additional observations from a re-analysis of the deposited data

Results flagged for a closer look

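In 3 of 40 wild-type groups of a member's lead probe set, 1 array stood far from the other 3. Chance alone flags about 1 in 20 groups. For Stab2, EtOH+RSV replicate 3 was at 8.78212, while the other 3 arrays were at 8.85201 to 8.85911. For Fcgr2b, EtOH replicate 5 was at 9.62727, while the others were at 9.87471 to 9.90083. For Oit3, a compressed probe set, control replicate 1 was at 8.27129, while the others were at 8.27161 to 8.27167.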

How the results depend on the processing

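No member called with the deposited values changed direction under any alternative, but members not called with them, and called genes of the other lists, could turn sign. Under quantile normalization 5 members passed as higher and 1 as lower for EtOH against control. Kdr, Gata4, Oit3 and Tek passed as higher there, with differences of -7.7e-05, -9.5e-06, -1.4e-05 and -3.7e-05 in the deposited values. For EtOH+RSV against control Kdr, Gata4 and Tek turned likewise. Gata4 and Tek also turned for EtOH+EA against control, from -0.000271 and -0.000121 in the deposited values. Of 10 members, the numbers passing for EtOH, EtOH+EA and EtOH+RSV against control, then for EtOH+EA against EtOH, were 1, 3, 1 and 1 with the values as deposited. With quantile normalization they were 6, 8, 7 and 0, with the replicate block 1, 5, 2 and 0, under the trended robust variance model 1, 2, 1 and 1, by rank product 2, 4, 2 and 3, and with only the 2 diets compared 0, 2, 0 and 0. Among probe sets above the median level they were 1, 4, 2 and 3 of 9 members tested. Among uncompressed ones they were 1, 3, 2 and 2 of 4. Over all 6633 uncompressed probe sets, 1188 were higher and 2239 lower for EtOH+EA against control, and 2602 and 3737 of 22518 above the median level. By rank product 1612 and 2212 of all 45037 were, with only the 2 diets 2766 and 3755. Under the trended robust model they were 2507 and 3289, and with the block 2800 and 4009. For EtOH+EA against EtOH, 648 were higher and 910 lower among the uncompressed, and 707 and 900 above the median level. By rank product 1120 and 1401 were. For EtOH+RSV against control, 1099 and 2407 uncompressed ones passed, and 3044 and 4602 above the median level. Rank product gave 1457 and 2142 there, and the block 3938 and 5148. For EtOH against control rank product gave 1052 and 1462. Among members, rank product also gave 3 for EtOH+EA against EtOH+RSV, and 1 for EtOH+RSV against EtOH in CAR-deficient livers. In the interactions quantile normalization gave 4 members for EtOH, 2 for EtOH+EA and 5 for EtOH+RSV, each against control, in place of 0. The cause of these changes was not tested. Leaving out 1 array gave 0 to 1, 2 to 4, 1 to 3 and 0 to 2 members in the 4 wild-type comparisons, and 0 in all others. In the block fit Fcgr2b passed for EtOH+RSV against control (difference -0.12, limma adjusted p = 0.0236) and no longer for EtOH+EA against EtOH (0.16, limma adjusted p = 0.0648). In these comparisons the pairing was mixed, with 2 of 4 and 2 of 3 same-numbered pairs correlated above 0.1. The replicate block changed no count in CAR-deficient livers or in the interactions.

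Over all 45037 wild-type probe sets, quantile normalization also moved the balance of calls: 11768 were higher and 3466 lower with EtOH than with control, in place of 991 and 1510. With EtOH+EA they were 14693 and 9495 in place of 2729 and 3669, with EtOH+RSV 17263 and 7736 in place of 4084 and 4801, and for EtOH+RSV against EtOH 1217 and 211 in place of 70 and 94. Of the genes called against control, members and all lists together, the sign turned in 4 of 16 for EtOH, 4 of 30 for EtOH+EA and 11 of 39 for EtOH+RSV. Compressed probe sets, 6 of 10 members in wild-type livers, bound what the deposited values can show.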
